A study of Homo sapiens with 6 samples.

Results

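The axon guidance ligands and receptors of H2087-LCC cells were followed across inhibition and activation of TGFβ signaling. The rule that picks the members reads gene symbols only, though the gene family was proposed with earlier results of these data known. It takes the semaphorins of classes 3 to 7 (SEMA), their plexin (PLXN) and neuropilin (NRP) receptors, the ephrins (EFNA, EFNB) and their Eph receptors (EPHA, EPHB), the SLIT ligands with their ROBO receptors, and the netrins (NTN) with their UNC5 receptors. The symbols of 67 of the 21293 genes in the table matched, 37 of them ligands and 30 receptors. A mean of at least 10 normalized counts over all libraries was reached by 53 members, 28 ligands and 25 receptors, and these were tested.

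Guidance cues were named for steering growth cones, and many are also made by epithelia, endothelia and carcinomas, where they act on adhesion, migration and the actin cytoskeleton. Secreted class 3 semaphorins bind a neuropilin that pairs with a plexin, whereas the membrane-bound semaphorins mostly bind plexins directly, and plexins signal through small GTPases. Ephrins are themselves anchored in the membrane, so Eph signaling passes between touching cells and can run in both directions. Netrins attract through DCC and repel through UNC5 receptors, and SLIT proteins repel through ROBO receptors.

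H2087-LCC cells, where LCC stands for latency competent cancer, came out of mice given the human lung adenocarcinoma (LUAD) line H2087, and the labels call them a dormant metastatic derivative. RNA-seq was performed on 6 libraries in 3 groups of 2. The cells received either SB505124 (SB), which blocks the kinase of the type I TGFβ receptor, over 3 days, or TGFβ over 3 or 7 days, so every group came from the same cell population and no group was left without an agent. There was no SB library at 7 days, so in the comparison of 7 days of TGFβ with SB the agent and the time in culture cannot be told apart, and both comparisons with SB share the same SB libraries. The study describes the libraries of a group as technical replicates and nothing says that they came from separate cultures, so SDs, standard errors (SEs) and p-values may cover technical spread only.

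Values are normalized counts: reads per gene divided by a library size factor and rounded by the authors. They summed to between 34306283 and 36340734 per library, from an estimated 32000000 to 40000000 assigned reads. Among 12 epithelial and LUAD markers, KRT8 was abundant in every library (33341 to 42692 normalized counts), although SFTPC was at 0 or 1 and CDH1 fell from 371 and 635 in SB to 10 and 9 at 7 days. Of the 11 tested, 7 were called lower and 2 higher at 7 days against SB (limma, adjusted p under 0.05), beside 26.9% and 27.7% of all tested genes. EPCAM fell from 10180 and 9106 to 2988 and 3277 and NKX2-1 from 2784 and 2908 to 853 and 857. SFTPB ended at 22 and 19, while KRT7 rose from 5860 and 6183 to 13979 and 11230. The TGFβ response genes followed the labels, with SMAD7 at 112 and 79 in SB, 916 and 799 at 3 days, and 854 and 747 at 7 days. Summed neuron and glia markers ran from 6853 to 7499 in SB, 9436 to 10304 at 3 days and 12816 to 13772 at 7 days, carried by SYT1 (5515 to 12600), while RBFOX3 stayed at or below 3. Leukocyte markers summed to between 4852 and 6135 with PTPRC at or below 4. The sum was carried by CD68 (4368 to 5113), which was not called at 3 or 7 days against SB (limma, adjusted p = 0.572 and 0.666). CSF1R was at 34 and 31 in SB and 1114 and 1032 at 7 days. Their part in any result was not tested, and in bulk RNA fewer cells of a type and less RNA per cell cannot be told apart.

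The 2 SB libraries stood apart from each other. SFTPB, a surfactant gene, was at 1104 in SB library 1 and 8273 in SB library 2. The median absolute difference between the libraries of a group, in log2 normalized counts, was 0.38 over the 53 members in SB against 0.16 over all 14395 tested genes, 0.23 against 0.13 at 3 days, and 0.21 against 0.12 at 7 days. In SB, 17 members differed by over 0.5 between the libraries, compared with 5 at 3 days and 6 at 7 days. Of the 53, 35 were higher in SB library 2, 36 in library 2 at 3 days, and only 15 in library 2 at 7 days. Judged by the median differences alone, members varied more between libraries of a group than all tested genes did. The counts of members have no matching counts over all tested genes, which were not computed, so they are descriptions only. Results that rest on 1 library are given with and without it.

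The 2 promoters printed here belong to the members with the largest rise and the largest fall at 7 days against SB among those with a mean of at least 100, and are shown so that the letters behind both ends of the range can be read. Each is the 250 bases before the start of transcription in RefSeq, build GRCh38.p14, read 5′ to 3′ on the minus strand. PLXNA4 lies at chr7:132576471-132576720 and EPHA4 at chr2:221574203-221574452. Capitals mark a match, on either strand, to one of the motifs searched.
PLXNA4: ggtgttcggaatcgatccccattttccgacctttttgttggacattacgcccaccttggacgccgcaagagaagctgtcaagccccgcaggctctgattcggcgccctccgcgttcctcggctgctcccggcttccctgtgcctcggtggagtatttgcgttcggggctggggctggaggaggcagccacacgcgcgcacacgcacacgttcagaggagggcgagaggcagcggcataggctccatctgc
EPHA4: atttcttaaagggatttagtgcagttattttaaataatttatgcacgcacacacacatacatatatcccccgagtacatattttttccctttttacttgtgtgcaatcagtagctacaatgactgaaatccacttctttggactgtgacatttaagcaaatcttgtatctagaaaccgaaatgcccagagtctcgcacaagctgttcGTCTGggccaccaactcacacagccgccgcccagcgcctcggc
The motifs were GTCTAGAC (the palindrome bound by SMAD proteins), CAGAC (a shorter SMAD-binding element), TGANTCA (AP-1) and CACCTG (the E-box read by ZEB and SNAIL factors), and none of them contains another. The PLXNA4 window held no match. The EPHA4 window held 1 match to CAGAC, 43 bases before the start and on the opposite strand, so that it reads GTCTG. Promoters were found for 57 of the 67 members. CAGAC was present in 28.1% of them (16 promoters) and in 38% of all 35116 promoters in the table, CACCTG in 15.8% (9) and 17.5%, TGANTCA in 1.75% (1, PLXNC1) and 6.57%, and GTCTAGAC in 0% and 0.182%. Of the 27 members with a promoter that rose at 7 days against SB, 6 held CAGAC and 6 held CACCTG, and of the 8 that fell, 3 held CAGAC and 1 held CACCTG.

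Before any change with TGFβ, the levels of the classes differed widely. Levels are compared between genes as normalized counts per kilobase (kb) of exon, summed over the members of a class and given as mean ± SD (n = 2). In SB, the neuropilins (2656 ± 164) and the membrane semaphorins of classes 4 to 7 (2579 ± 238) stood highest. The plexins (1190 ± 147), EPHA receptors (1064 ± 43.3) and secreted semaphorins (856 ± 104) followed. The ephrins, EPHB receptors and netrins summed to between 390 and 658, and the ROBO receptors (15.8 ± 2.46), UNC5 receptors (4.91 ± 1.35) and SLIT ligands (3.25 ± 0.18) were near the bottom of the range.

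**Figure D1:**
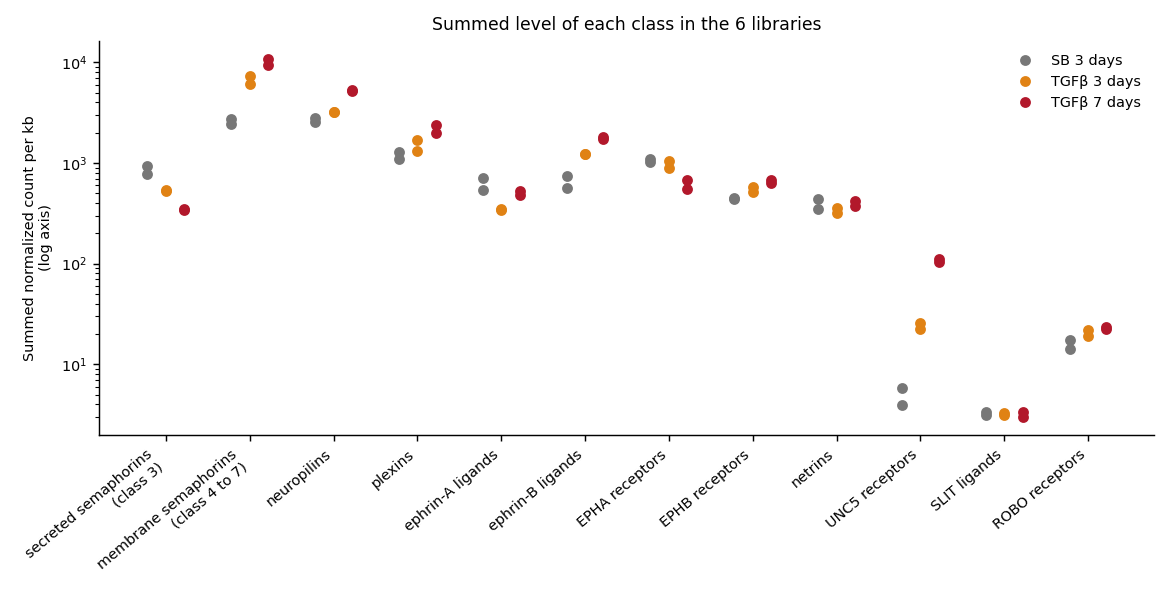
Summed normalized count per kb of exon (log axis) of the members of each class, with 1 point for each of the 2 libraries of SB at 3 days (grey), TGFβ at 3 days (orange) and TGFβ at 7 days (red). The membrane semaphorins, neuropilins, plexins, ephrin-B ligands and the EPHB, ROBO and UNC5 receptors step upward, with UNC5 receptors at 4.91 in SB and 108 at 7 days. The secreted semaphorins step downward. EPHA receptors overlap between SB (1094 and 1033) and 3 days (888 and 1038) and are lower at 7 days. The sum of the SLIT ligands stays between 3.02 and 3.38 in every library.

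With TGFβ, the sums moved apart. Membrane semaphorins reached 6659 ± 885 at 3 days and 10160 ± 973 at 7 days, neuropilins 3202 ± 29.4 and 5227 ± 145, plexins 1485 ± 263 and 2205 ± 283, and ephrin-B ligands 1220 ± 1.54 and 1768 ± 53.0 from 658 ± 126 in SB. EPHB receptors stood at 542 ± 45.1 and 658 ± 28.3 from 445 ± 8.96 in SB, and ROBO receptors at 20.4 ± 2.04 and 23.1 ± 0.60. Secreted semaphorins stood at 533 ± 12.5 and 342 ± 5.58, and EPHA receptors at 963 ± 106 and 611 ± 84.5. In several classes, though not among the plexins or ephrin-A ligands, a single gene held most of the sum. SEMA4B held 59.6% of the membrane semaphorin sum in SB, whereas SEMA7A held 76.1% at 3 days and 77.2% at 7 days. SEMA3A held 89.4% of the secreted semaphorins in SB, 65.8% at 3 days and 42.1% at 7 days. EFNB2 held 91.4 to 95.5% of the ephrin-B ligands, NTN4 98.3 to 99.5% of the netrins, and UNC5B 68.0, 84.1 and 91.1% of the UNC5 receptors in the order SB, 3 days and 7 days. The lead passed from ROBO2 (58.8% in SB) to ROBO3 (65.3% at 7 days) among the ROBO receptors, and from EPHB4 (36.3%) to EPHB2 (50.2% at 3 days) among the EPHB receptors, where EPHB1 led at 7 days when the longest transcript replaced the union of exons. SLIT2 held 53.05% of the low SLIT ligand sum in SB and 81.56% at 7 days. The class sums carry no test.

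At 3 days of TGFβ, 27 of the 53 tested members differed from SB at an adjusted p under 0.05 (limma, Benjamini-Hochberg adjustment over all 14395 tested genes), 16 higher and 11 lower, beside 29.0% of all tested genes (14.9% higher, 14.0% lower). At 7 days, 41 differed from SB, 31 higher and 10 lower, beside 54.5% of all tested genes (27.7% higher, 26.9% lower). Between 3 and 7 days of TGFβ, 32 differed, 26 higher and 6 lower, beside 33.2% (17.0% higher, 16.2% lower). The members' shares were 50.9%, 77.4% and 60.4%. At least 2-fold changes were called for 18 members at 3 days, 22 at 7 days and 13 between them, beside 8.80%, 16.7% and 6.53% of all tested genes. The tested members include 6 with a group mean under 10 (EFNA2, NTN1, ROBO4, SEMA4A, UNC5A and UNC5C), which entered through the group where they were higher, so the counts are descriptions and not support for a direction.

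The median log2 fold change of the 53 was 0.13 at 3 days against SB (-0.02 over all tested genes), 0.62 at 7 days against SB (-0.00081 over all tested genes) and 0.51 between 3 and 7 days (0.02). When 1 library was left out, the first of these medians ran from 0.07 to 0.23. Between 3 and 7 days, 19 members were called without 7-day library 1, in place of 32, while the calls over all tested genes went from 4775 to 2573 of 14395. With no filter on low values 19 members were called as well, beside 3042 of all 19977 genes. After correction of each library for GC content and transcript length, the split between 3 and 7 days was 23 higher and 11 lower and the median 0.33. Over all 13021 genes in that fit it was 2455 higher and 3460 lower with a median of -0.04, in place of 2449 higher and 2326 lower. The calls kept in every alternative run numbered 18 of 27, 30 of 41 and 17 of 32 in the same order of comparisons. The share kept over all tested genes was not computed. Scarce members that a stricter filter left out, such as ROBO4, were not counted as losing a call there.

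**Figure D2:**
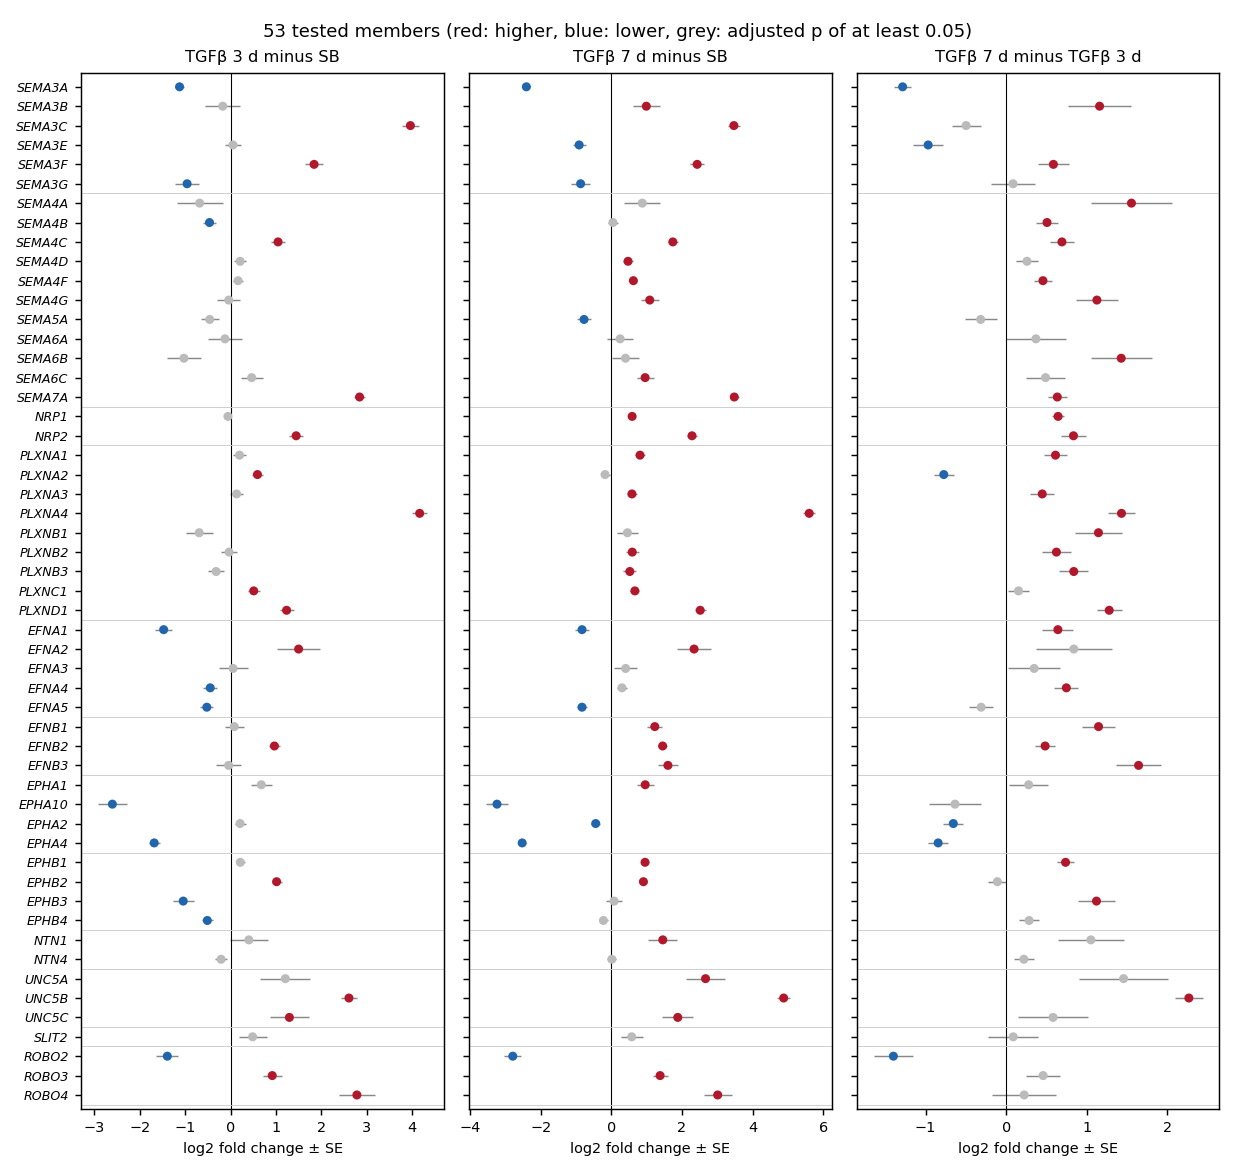
Log2 fold change ± SE of the 53 tested members in the 3 comparisons, on the log2(normalized count + 1) scale, with members grouped by class (red, higher; blue, lower; grey, adjusted p of at least 0.05). The largest rises at 7 days against SB are PLXNA4 (5.60) and UNC5B (4.87), the largest falls are EPHA10 (-3.24), ROBO2 (-2.79) and EPHA4 (-2.53), and between 3 and 7 days UNC5B (2.27) and EFNB3 (1.64) lead.

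Members took different paths through the 3 comparisons. Called higher in all of them were EFNB2, NRP2, PLXNA4, PLXND1, SEMA3F, SEMA4C, SEMA7A and UNC5B (8 members), and called lower in all were EPHA4, ROBO2 and SEMA3A (3). A further 7 were higher against SB at both times with no call between 3 and 7 days, and 11 were called higher only in both comparisons that involve 7 days, among them EFNB1, EFNB3 and NRP1. PLXNA2 was higher at 3 days and lower again between 3 and 7 days. EFNA1, EFNA4, EPHB3 and SEMA4B were lower at 3 days and higher between 3 and 7 days. No call was made in any comparison for EFNA3, NTN4, SEMA6A and SLIT2. How often all tested genes took each path was not computed, so these counts are descriptions only. Several placements rest on calls lost in some alternatives, among them those of EFNA4, EFNB2, SEMA3F, SEMA4B and SEMA4C. Fold changes in what follows are on the log2(normalized count + 1) scale with their SE, which understates the change of low genes, and each p is adjusted. Losses named for a gene are mainly those with 1 library left out. Of the members with 2-fold calls, 12 calls were also lost with no filter on low values and 9 in limma without trend. EFNA1, EFNB2, PLXNB1, SEMA3B, SEMA3F, SEMA4A, SEMA4C and SEMA6B lost the call between 3 and 7 days in both, as EPHA2 did against SB at 7 days.

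**Figure D3:**
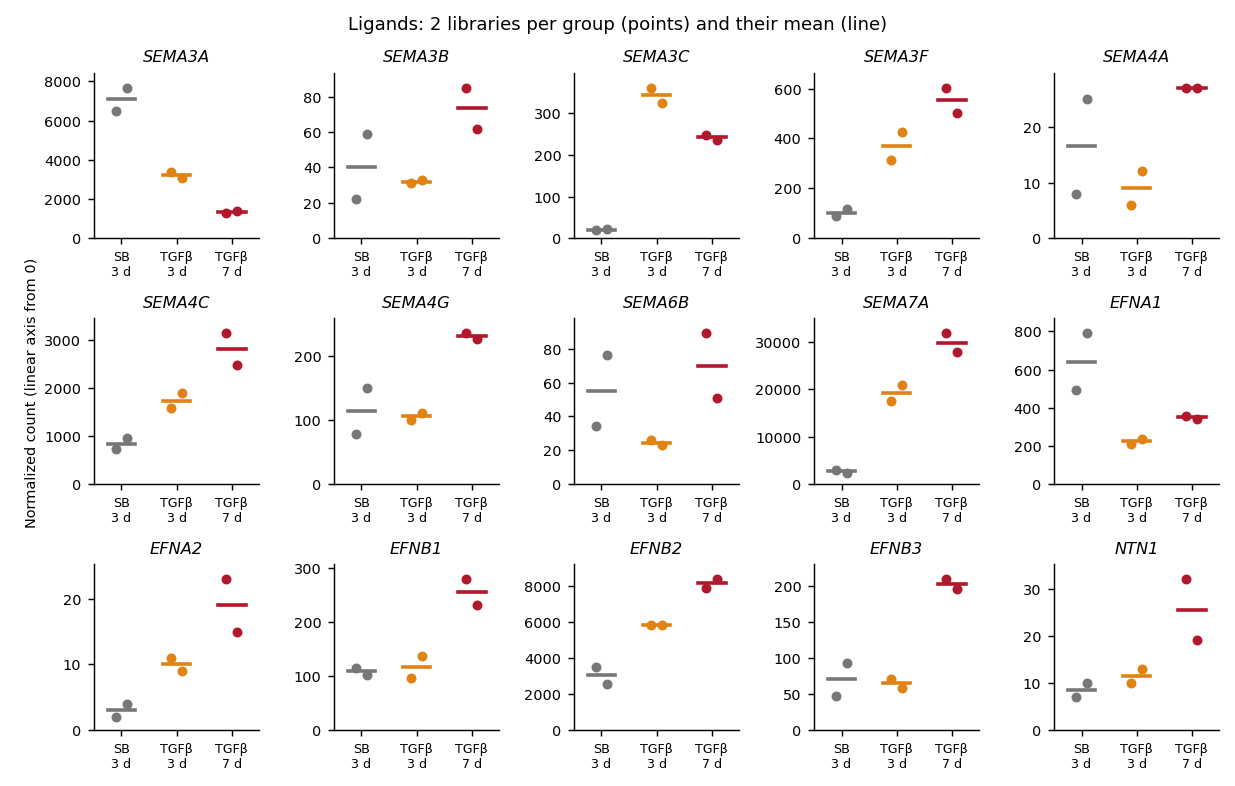
Normalized counts of the 15 ligands with a called change of at least 2-fold, on linear axes that start at 0, with a point for each of 2 libraries and a line for their mean in SB at 3 days (grey), TGFβ at 3 days (orange) and TGFβ at 7 days (red). SEMA7A climbs from 2990 and 2384 to 31742 and 27855 while SEMA3A descends from 6507 and 7674 to 1278 and 1384, and SEMA3B, SEMA4A and SEMA6B show wide gaps between the 2 SB libraries.

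Among the secreted semaphorins, 1 abundant ligand fell while 2 scarce ones rose. SEMA3A, the repellent known for collapsing growth cones through NRP1 and A-type plexins (chr7:83585093-84122040, GRCh37), had 6507 and 7674 normalized counts in SB, 3404 and 3087 at 3 days, and 1278 and 1384 at 7 days. The groups did not overlap and each stood below the one before. The change was -1.12 ± 0.10 at 3 days against SB (adjusted p = 7.41e-06), -2.41 ± 0.10 at 7 days (adjusted p = 5.44e-09, 0.188 of the SB mean) and -1.28 ± 0.10 between them (adjusted p = 1.20e-05). SEMA3C, a class 3 semaphorin that guides cardiac neural crest cells and lies on the same chromosome (chr7:80371854-80551675), had 20 and 22 in SB, 361 and 324 at 3 days, and 248 and 236 at 7 days. It stood highest at 3 days, with no overlap between groups, and the rise was 3.96 ± 0.18 (adjusted p = 2.13e-08) and 3.47 ± 0.18 (adjusted p = 2.86e-08) against SB. The difference between 3 and 7 days, -0.50 ± 0.18, missed the threshold (adjusted p = 0.0528) and passed it under 7 of the alternatives, among them without SB library 1 (adjusted p = 0.0249) or SB library 2 (adjusted p = 0.0253).

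SEMA3F, which acts chiefly through NRP2, had 89 and 116 in SB, 315 and 427 at 3 days, and 603 and 503 at 7 days. Every TGFβ library was above every SB library, with rises of 1.84 ± 0.19 (adjusted p = 1.97e-05) and 2.43 ± 0.19 (adjusted p = 8.81e-07). The step from 3 to 7 days (0.59 ± 0.19, adjusted p = 0.0342) was lost without 3-day library 1 (0.37, adjusted p = 0.263), 7-day library 1 (0.45, adjusted p = 0.227) or 7-day library 2 (0.72, adjusted p = 0.0689). SEMA3B, a semaphorin of the chromosome 3p region often lost in lung cancer, had 22 and 59 in SB, 31 and 33 at 3 days, and 85 and 62 at 7 days. Its SB libraries lay on either side of the 3-day libraries. The calls at 7 days against SB (0.99 ± 0.39, adjusted p = 0.0485) and against 3 days (1.16 ± 0.39, adjusted p = 0.0389) passed narrowly. Without SB library 1 the former was 0.29 (adjusted p = 0.419) and without SB library 2 it was 1.68 (adjusted p = 0.00143), it was lost without 7-day library 1 (adjusted p = 0.228) or 2 (adjusted p = 0.0648), and the latter was lost without any one of the 3-day or 7-day libraries (adjusted p = 0.073 to 0.206).

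Of the other class 3 members, SEMA3E, the ligand that binds PLXND1 without a neuropilin, had 261 and 191 in SB, 242 and 222 at 3 days, and 116 and 120 at 7 days. It fell at 7 days, by 0.91 on the log2 scale against SB (adjusted p = 0.0012) and by 0.97 against 3 days (adjusted p = 0.00232), and the SB and 3-day values overlapped. SEMA3G, an NRP2 ligand, had 121 and 204 in SB, 77 and 84 at 3 days, and 70 and 104 at 7 days, with calls of -0.96 (adjusted p = 0.0195) and -0.87 (adjusted p = 0.0162) against SB. Neither held without SB library 2 (-0.58, adjusted p = 0.145, and -0.50, adjusted p = 0.147), and the former was also lost without 3-day library 1 (adjusted p = 0.0782) and the latter without 7-day library 1 (adjusted p = 0.149). In all, 2 of the 6 tested class 3 members were higher and 2 lower at 3 days, and 3 were higher and 3 lower at 7 days.

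SEMA7A had the highest level per kb of all members in the TGFβ libraries, whereas in SB its mean of 707 normalized counts per kb stood below those of NRP1 (2274), SEMA4B (1544), SEMA3A (766) and EPHA2 (734). It is a semaphorin held in the membrane by a lipid anchor that binds PLXNC1 and integrins (chr15:74701630-74726299). Its normalized counts were 2990 and 2384 in SB, 17513 and 20974 at 3 days, and 31742 and 27855 at 7 days. The groups did not overlap, and the means were 7.16-fold and 11.1-fold that of SB. The rises were 2.84 ± 0.12 (adjusted p = 1.13e-08) and 3.48 ± 0.12 (adjusted p = 9.98e-10), with a further 0.63 ± 0.12 between 3 and 7 days (adjusted p = 0.00245). SEMA4C, a transmembrane ligand of PLXNB2, had 737 and 951 in SB, 1579 and 1897 at 3 days, and 3138 and 2489 at 7 days. It too rose at each step, at 3 days by 1.05 ± 0.15 (adjusted p = 0.000235) and at 7 days against SB by 1.74 ± 0.15 (adjusted p = 1.72e-06). The step between them, 0.69 ± 0.15 (adjusted p = 0.00457), was lost without 7-day library 1 (0.52, adjusted p = 0.0573).

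The other transmembrane semaphorins with 2-fold calls were scarce and differed mainly between 3 and 7 days. SEMA4G had 79 and 150 in SB, 100 and 112 at 3 days, and 236 and 228 at 7 days. The SB libraries enclosed the 3-day libraries, and both lay below the 7-day libraries. The rise at 7 days was 1.08 ± 0.26 against SB (adjusted p = 0.00362; 0.63 without SB library 1, adjusted p = 0.0199) and 1.12 ± 0.26 against 3 days (adjusted p = 0.00642; 0.0676 with no filter on low values), and 28.0% of its exon bases are also annotated for MRPL43 on the other strand, from which reads could not be told apart in a kit that does not keep strand. SEMA6B, a ligand of PLXNA4, had 34 and 76 in SB, 26 and 23 at 3 days, and 89 and 51 at 7 days. The 3-day libraries were the lowest, and the SB and 7-day values overlapped. The difference between 3 and 7 days (1.43 ± 0.38, adjusted p = 0.0138) was lost without 7-day library 1 (1.03, adjusted p = 0.132), and calls against SB appeared at 3 days without SB library 1 (-1.60, adjusted p = 0.00936) and at 7 days without SB library 2 (0.97, adjusted p = 0.0474). SEMA4A, a transmembrane semaphorin known from T cell priming, had 8 and 25 in SB, 6 and 12 at 3 days, and 27 in both libraries at 7 days. Its call between 3 and 7 days (1.55 ± 0.51, adjusted p = 0.035) was lost without 3-day library 1 (1.11, adjusted p = 0.193) or either 7-day library (adjusted p = 0.119 and 0.127), while the values against SB were called only without SB library 1 (3 days, -1.45, adjusted p = 0.0412) or SB library 2 (7 days, 1.64, adjusted p = 0.0158).

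SEMA4B, the other abundant membrane semaphorin, followed another course from SEMA7A. It had 9297 and 12308 normalized counts in SB, 6847 and 8786 at 3 days, and 11842 and 10246 at 7 days. It was lower at 3 days (-0.46 ± 0.14, adjusted p = 0.0289) and higher again between 3 and 7 days (0.51 ± 0.14, adjusted p = 0.0179), and at 7 days its values overlapped those of SB (0.04 ± 0.14, adjusted p = 0.816). The first call was lost without SB library 2 (adjusted p = 0.22) or 3-day library 1 (adjusted p = 0.227), and the second without 3-day library 1 (adjusted p = 0.14) or 7-day library 1 (adjusted p = 0.132). SEMA4D, the ligand of PLXNB1, SEMA4F and SEMA6C rose at 7 days against SB by 0.47 to 0.95, SEMA5A fell by 0.78, and SEMA6A passed no threshold. The SEMA4D call was lost without SB library 1 (adjusted p = 0.0726) or either 7-day library (adjusted p = 0.0769 and 0.0524), and those of SEMA6C and SEMA5A without 7-day library 1 (adjusted p = 0.0533 and 0.0772), while SEMA6C was called at 3 days without SB library 1 (0.73, adjusted p = 0.0478). SEMA4F also rose between 3 and 7 days (0.46 ± 0.11, adjusted p = 0.00771), a call lost without 3-day library 1 (adjusted p = 0.0669) or 7-day library 1 (adjusted p = 0.0814). After the GC correction the differences between 3 and 7 days were 0.33 for SEMA4B (adjusted p = 0.0109) and 0.29 for SEMA4F (adjusted p = 0.0143).

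The 3 ephrin-B ligands were higher at 7 days in both comparisons. EFNB2, a transmembrane ligand of EPHB4 and a marker of arterial endothelium (chr13:107142093-107188010), had 3489 and 2547 normalized counts in SB, 5842 and 5811 at 3 days, and 7911 and 8379 at 7 days. It rose at 3 days already (0.97 ± 0.12, adjusted p = 0.000107) and stood 1.45 ± 0.12 above SB at 7 days (adjusted p = 1.74e-06). The step from 3 to 7 days (0.48 ± 0.12, adjusted p = 0.0116) was lost without 7-day library 2 (0.44, adjusted p = 0.0845) and after the GC correction (0.37, adjusted p = 0.0557), and 36.4% of its exon bases overlap an antisense gene. EFNB1, mutated in craniofrontonasal syndrome, had 115 and 102 in SB, 96 and 137 at 3 days, and 280 and 232 at 7 days. EFNB3 had 47 and 93 in SB, 71 and 58 at 3 days, and 209 and 196 at 7 days. For both, SB and 3-day libraries overlapped and the 7-day libraries stood above them. EFNB1 rose by 1.23 ± 0.21 against SB (adjusted p = 0.000371) and 1.15 ± 0.21 against 3 days (adjusted p = 0.00183), and EFNB3 by 1.60 ± 0.28 (adjusted p = 0.000525) and 1.64 ± 0.28 (adjusted p = 0.00141).

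The lipid-anchored ephrin-A ligands went mostly the other way at 3 days, when 3 of 5 were lower and 1 higher. EFNA1, a high-affinity ligand of EPHA2, had 492 and 789 in SB, 212 and 236 at 3 days, and 359 and 340 at 7 days. The SB libraries were the highest and the 3-day libraries the lowest, with no overlap. After 3 days it fell by 1.47 in log2 terms (SE 0.19, adjusted p = 0.00013) and by 0.83 after 7 days (adjusted p = 0.00322, or -0.49 without SB library 2, adjusted p = 0.023). The partial return between 3 and 7 days (0.64 ± 0.19, adjusted p = 0.0245) was lost without 3-day library 1 (adjusted p = 0.103) or either 7-day library (adjusted p = 0.114 and 0.0844). EFNA5 had 514 and 554 in SB, 420 and 328 at 3 days, and 301 and 297 at 7 days. It was lower at both times against SB (-0.52, adjusted p = 0.0192, and -0.83, adjusted p = 0.000499), the former lost without SB library 2 (adjusted p = 0.08) or 3-day library 2 (adjusted p = 0.182). EFNA4 was lower at 3 days (-0.45, adjusted p = 0.043), a call lost without any one of the 6 libraries (adjusted p = 0.0715 to 0.2), and higher between 3 and 7 days (0.75, adjusted p = 0.00331), lost without 7-day library 1 (adjusted p = 0.0505). After the GC correction it was also called higher at 7 days against SB (0.38, adjusted p = 0.0189, in place of 0.30, adjusted p = 0.114). EFNA4 and EFNA3, which passed no threshold in the full fit (0.96, adjusted p = 0.011 at 7 days without SB library 2), share exon bases with the readthrough gene EFNA4-EFNA3 (15.0% and 43.9% of their exon bases), so their counts are uncertain. EFNA2 was scarce, with 2 and 4 in SB, 11 and 9 at 3 days, and 23 and 15 at 7 days. As it passed the filter through the TGFβ groups where it was higher, its direction is partly fixed by the filter. Its groups did not overlap, and it rose by 2.34 ± 0.47 at 7 days (adjusted p = 0.00128), while the call at 3 days (1.50 ± 0.47, adjusted p = 0.0322) was lost without SB library 1 (1.13, adjusted p = 0.103) or either 3-day library (adjusted p = 0.168 and 0.0777).

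Of the 3 netrin and SLIT ligands tested, NTN1 was the only one called. NTN4, a netrin that binds laminins in basement membranes, had 1895 and 1496 in SB, 1550 and 1371 at 3 days, and 1595 and 1805 at 7 days, with no call in any comparison (-0.21 to 0.22, adjusted p = 0.204 to 0.946). The groups overlapped except between 3 and 7 days. NTN1, the founding netrin and ligand of DCC and UNC5 receptors, had 7 and 10 in SB, 10 and 13 at 3 days, and 32 and 19 at 7 days. Because it passed the filter through the TGFβ groups where it was higher, its direction is partly fixed by the filter. Both 7-day libraries were above the rest, and the rise against SB (1.45 ± 0.41, adjusted p = 0.0103) was lost without 7-day library 1 (1.09, adjusted p = 0.116). Its value between 3 and 7 days (1.05 ± 0.41, adjusted p = 0.0692) was called without SB library 1 (adjusted p = 0.0467) or SB library 2 (adjusted p = 0.048). SLIT2, the only SLIT ligand tested, had 18 and 20 in SB, 28 and 26 at 3 days, and 25 and 33 at 7 days, and passed no threshold (adjusted p = 0.136 to 0.853).

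**Figure D4:**
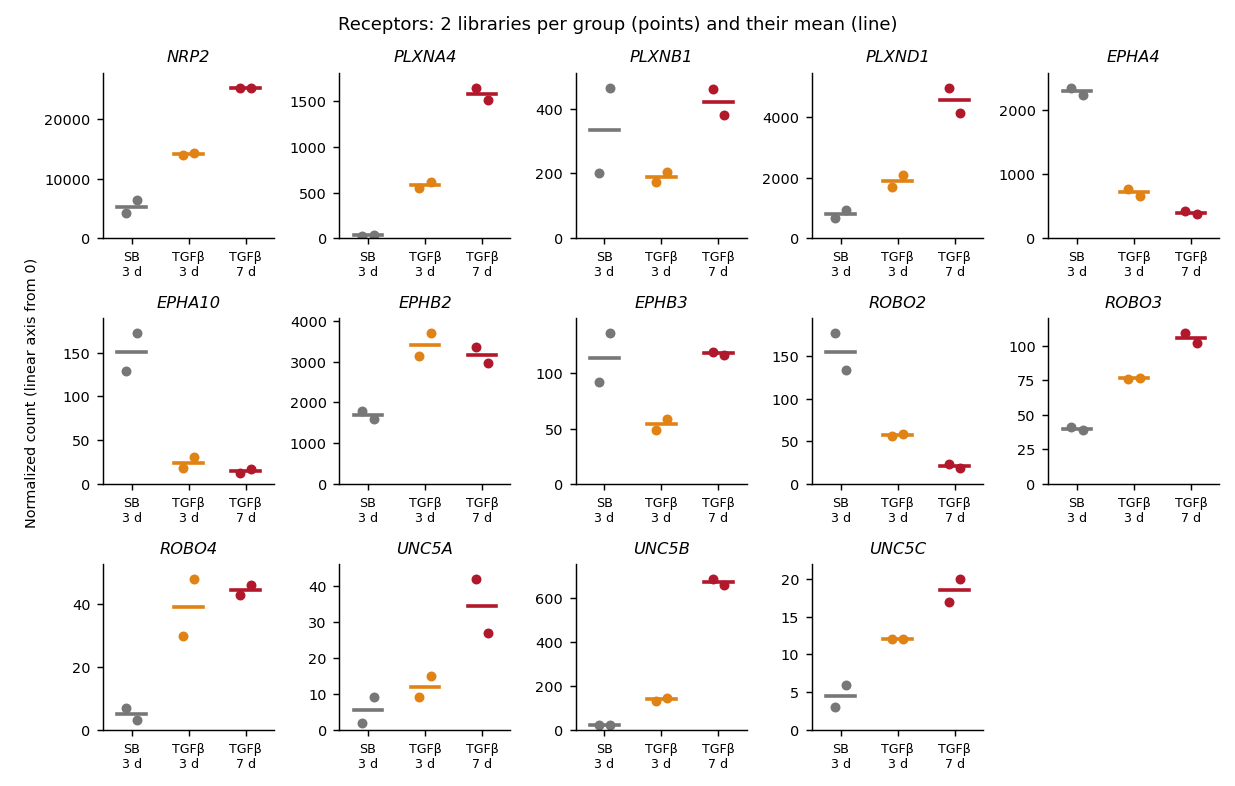
Normalized counts of the 14 receptors with a called change of at least 2-fold, on linear axes that start at 0, with a point for each of 2 libraries and a line for their mean in SB at 3 days (grey), TGFβ at 3 days (orange) and TGFβ at 7 days (red). PLXNA4, PLXND1, NRP2 and UNC5B climb at each step, EPHA4 and ROBO2 descend at each step, and EPHB3 is lowest at 3 days (49 and 59).

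Both neuropilins, the receptors that bind secreted semaphorins, were higher at 7 days. NRP2, the neuropilin that binds SEMA3F and VEGF-C (chr2:206546714-206662857), had 4177 and 6453 normalized counts in SB, 14034 and 14262 at 3 days, and 25218 and 25227 at 7 days. The SB libraries differed more than the others, and the groups did not overlap. Against SB, NRP2 had risen by 1.45 ± 0.15 after 3 days (adjusted p = 2.03e-05) and by 2.28 ± 0.15 after 7 days (adjusted p = 1.86e-07), with a further step of 0.83 ± 0.15 between 3 and 7 days (adjusted p = 0.00178). NRP1, which binds SEMA3A and VEGF-A, had 25802 and 26591 in SB, 25497 and 24829 at 3 days, and 38137 and 40496 at 7 days. It was already abundant in SB and rose only by 7 days (0.59 ± 0.08 against SB, adjusted p = 5.57e-05, and 0.64 ± 0.08 against 3 days, adjusted p = 0.00014), with -0.06 ± 0.08 at 3 days (adjusted p = 0.614). Per kb, NRP2 stood at 0.134 and 0.201 of NRP1 in the SB libraries, 0.456 and 0.476 at 3 days, and 0.548 and 0.517 at 7 days.

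PLXNA4, a plexin that signals for SEMA3A with NRP1 and also binds class 6 semaphorins, showed the largest rise of any member (chr7:131808099-132333447). It had 27 and 37 normalized counts in SB, 553 and 620 at 3 days, and 1646 and 1515 at 7 days. No SB library came near a TGFβ library, and the means were 18.3-fold and 49.4-fold that of SB. The log2 changes were 4.17 ± 0.17 (adjusted p = 7.14e-09), 5.60 ± 0.17 (adjusted p = 2.73e-10) and 1.43 ± 0.17 between 3 and 7 days (adjusted p = 0.000119), and its promoter window held none of the motifs searched. PLXND1, the receptor of SEMA3E and a regulator of vessel patterning (chr3:129274057-129325519), had 676 and 932 in SB, 1680 and 2081 at 3 days, and 4965 and 4140 at 7 days. It rose at each step, by 1.24 ± 0.15 (adjusted p = 9.39e-05) and 2.51 ± 0.15 (adjusted p = 1.09e-07) against SB and by 1.28 ± 0.15 between 3 and 7 days (adjusted p = 0.00016).

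The other plexins changed less than 2-fold except PLXNB1, the receptor of SEMA4D, with 201 and 464 in SB, 174 and 205 at 3 days, and 461 and 380 at 7 days. SB library 2 lay just above the 7-day libraries and SB library 1 between the 3-day libraries. The difference between 3 and 7 days (1.14 ± 0.29, adjusted p = 0.0118) was lost without 7-day library 1 (adjusted p = 0.0745), and a call against SB appeared at 3 days without SB library 1 (-1.29, adjusted p = 0.000778) and at 7 days without SB library 2 (1.05, adjusted p = 0.00133). PLXNA1, the plexin with the largest part of the class sum per kb, had 4200 and 4851 in SB, 4434 and 6050 at 3 days, and 8694 and 7200 at 7 days. It rose at 7 days against SB by 0.81 ± 0.14 (adjusted p = 0.000453), and by 0.38 after the GC correction (adjusted p = 0.00087), and was called at 3 days without 3-day library 1 (0.42, adjusted p = 0.0421). PLXNA2 had 2878 and 2338 in SB, 3559 and 4304 at 3 days, and 2468 and 2121 at 7 days, higher at 3 days (0.59 ± 0.13, adjusted p = 0.00424) and then lower (-0.77 ± 0.13, adjusted p = 0.00106). The first of these calls was lost with no filter on low values (adjusted p = 0.0606) and in limma without trend (adjusted p = 0.0564). PLXNC1, the plexin of SEMA7A, had 367 and 335 in SB, 505 and 495 at 3 days, and 515 and 600 at 7 days. It rose against SB by 0.51 ± 0.13 (adjusted p = 0.012, lost without SB library 2, adjusted p = 0.0511, or 3-day library 1, adjusted p = 0.0708) and 0.66 ± 0.13 (adjusted p = 0.0011).

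PLXNA3, PLXNB2 and PLXNB3 were called higher at 7 days in both comparisons, by 0.45 to 0.84. The call of PLXNA3 against SB was lost without 7-day library 1 (adjusted p = 0.067), that of PLXNB2 without SB library 1 (adjusted p = 0.179) or 7-day library 1 (adjusted p = 0.131), and that of PLXNB3 without SB library 1 (adjusted p = 0.132) or either 7-day library (adjusted p = 0.143 and 0.0722). Against 3 days, the calls of PLXNA1 and PLXNB2 were lost without 3-day library 1 (adjusted p = 0.0586 and 0.136) or 7-day library 1 (adjusted p = 0.0705 and 0.158), and that of PLXNA3 also without 7-day library 2 (adjusted p = 0.0574). The GC correction ended the PLXNA3 calls (0.16, adjusted p = 0.2, and 0.13, adjusted p = 0.34) and the PLXNB3 call against SB (0.23, adjusted p = 0.115). Calls that it kept became smaller: PLXNB2 went from 0.59 to 0.31 against SB and from 0.62 to 0.345 against 3 days, and PLXNA1 from 0.61 to 0.26 and PLXNB3 from 0.84 to 0.54 against 3 days.

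Among the EPHA receptors, 3 of the 4 tested members were lower at 7 days than in SB and 1 was higher. EPHA4, which binds ephrins of both classes (chr2:222282747-222438922), had 2353 and 2237 normalized counts in SB, 772 and 660 at 3 days, and 424 and 372 at 7 days. The groups did not overlap and the 7-day mean was 0.173 of that in SB. It fell by 1.68 on the log2 scale (SE 0.12, adjusted p = 9.23e-07) and by 2.53 (adjusted p = 1.41e-08) against SB, and by 0.84 between 3 and 7 days (adjusted p = 0.000436), and its promoter window held 1 CAGAC match. EPHA10, an Eph receptor without kinase activity (chr1:38179552-38230805), had 129 and 172 in SB, 18 and 31 at 3 days, and 13 and 17 at 7 days. It fell by 2.60 (SE 0.32, adjusted p = 8.09e-05) and 3.24 (adjusted p = 6.16e-06) against SB. The value between 3 and 7 days, -0.64 ± 0.32 (adjusted p = 0.149), was called after the GC correction (-0.89, adjusted p = 0.0314).

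EPHA2, the most abundant Eph receptor per kb and one often raised in carcinomas, had 3143 and 2933 in SB, 3187 and 3872 at 3 days, and 2482 and 2001 at 7 days. It was lower at 7 days against 3 days (-0.66 ± 0.12, adjusted p = 0.00214). The call against SB (-0.45 ± 0.12, adjusted p = 0.00849) was lost without SB library 1 (-0.40, adjusted p = 0.0572) or 7-day library 2 (-0.29, adjusted p = 0.122). As EPHA4 and EPHA10 fell further, EPHA2 held 69.0% of the class sum per kb in SB and 88.5% at 7 days. EPHA1 was the exception within the class, with 38 and 35 in SB and 65 and 79 at 7 days (0.96 ± 0.24, adjusted p = 0.00493), a call lost without 7-day library 2 (adjusted p = 0.0612), and at 3 days it narrowly missed the threshold (0.68 ± 0.24, adjusted p = 0.0513).

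EPHB2, an ephrin-B receptor that orders cells along intestinal crypts, had 1789 and 1582 in SB, 3134 and 3689 at 3 days, and 3354 and 2961 at 7 days. It rose by 3 days (1.01 ± 0.11, adjusted p = 2.99e-05) and the 3-day and 7-day values overlapped (-0.11 ± 0.11, adjusted p = 0.475). After the GC correction the rise at 7 days was 0.50 (adjusted p = 0.00643) in place of 0.91 (adjusted p = 3.26e-05), and the value between 3 and 7 days was called lower (-0.42, adjusted p = 0.0222). EPHB1 had 723 and 720 in SB, 841 and 834 at 3 days, and 1360 and 1432 at 7 days, and rose at 7 days by 0.95 ± 0.10 (adjusted p = 1.17e-05). EPHB3, which shares the crypt role of EPHB2, had 92 and 136 in SB, 49 and 59 at 3 days, and 119 and 117 at 7 days. It fell at 3 days (by 1.04, SE 0.23, adjusted p = 0.00534) and returned (1.12 ± 0.23, adjusted p = 0.00378), so that the 7-day libraries lay within the SB range. EPHB4, the receptor of EFNB2, had 975 and 1105 in SB, 672 and 788 at 3 days, and 957 and 821 at 7 days, with 1 call, at 3 days (-0.51 ± 0.13, adjusted p = 0.0103), lost without SB library 2 (adjusted p = 0.0651) or 3-day library 1 (adjusted p = 0.0997). Per kb, EPHB2 stood at 0.459 and 0.427 of EPHA4 in SB, 2.45 and 3.37 at 3 days, and 4.77 and 4.80 at 7 days, so the order of these receptors turned over in every TGFβ library.

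The ROBO receptors were scarce and moved in opposite directions. ROBO2 (chr3:75955846-77699115) had 177 and 134 normalized counts in SB, 57 and 59 at 3 days, and 24 and 19 at 7 days. It fell at each step with no overlap, by 1.39 (SE 0.25, adjusted p = 0.0012), by 2.79 at 7 days against SB (adjusted p = 2.37e-06) and by 1.40 between 3 and 7 days (adjusted p = 0.00157). ROBO3, known for gating midline crossing, had 41 and 39 in SB, 76 and 77 at 3 days, and 109 and 102 at 7 days. It rose by 0.92 ± 0.21 (adjusted p = 0.00661) and 1.38 ± 0.21 (adjusted p = 0.000187) against SB. ROBO4, a receptor of endothelial cells, had 7 and 3 in SB, 30 and 48 at 3 days, and 43 and 46 at 7 days. It passed the filter through the TGFβ groups where it was higher, so its direction is partly fixed by the filter. ROBO4 rose by 2.78 ± 0.40 (adjusted p = 0.000272) and 3.01 ± 0.40 (adjusted p = 6.51e-05), with 18.0% of its exon bases under an antisense gene. Endothelial markers moved in both directions beside it, and 3 of the 6 listed were tested. TEK rose, from 11 and 12 in SB to 65 and 58 at 3 days and 115 and 117 at 7 days (3.23 ± 0.25 against SB, adjusted p = 7.12e-07). PECAM1 had 41 and 36 in SB, 61 and 67 at 3 days, and 56 and 53 at 7 days, a rise at 3 days (0.72 ± 0.24, adjusted p = 0.0391). KDR fell from 98 and 225 in SB to 26 and 31 at 3 days (adjusted p = 0.00029) and stood at 70 and 53 at 7 days. Among the untested markers, CDH5 had 14 and 20 in SB and at most 5 with TGFβ, VWF at most 13 and CLDN5 at most 1. The 6 markers summed to 171 to 306 in SB, 159 to 168 at 3 days and 227 to 248 at 7 days, and their part in the ROBO4 result was not tested.

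UNC5 receptors mediate repulsion by netrins and can signal death without ligand, and UNC5B showed the largest rise among them. It (chr10:72972327-73062621) had 22 normalized counts in both SB libraries, 133 and 146 at 3 days, and 688 and 660 at 7 days. Its groups were far apart relative to their spread, with a 7-day mean 30.6-fold that of SB. The rises were 2.61 ± 0.17 (adjusted p = 5.59e-07), 4.87 ± 0.17 (adjusted p = 1.22e-09) and 2.27 ± 0.17 between 3 and 7 days (adjusted p = 9.26e-06). UNC5A and UNC5C passed the filter through the TGFβ groups where they were higher, so their direction is partly fixed by the filter. UNC5A had 2 and 9 in SB, 9 and 15 at 3 days, and 42 and 27 at 7 days. It rose at 7 days against SB (2.66 ± 0.55, adjusted p = 0.00157). The value between 3 and 7 days (1.46 ± 0.55, adjusted p = 0.062) was called without SB library 1 (adjusted p = 0.0135) or 2 (adjusted p = 0.0166), and that at 3 days against SB (1.21, adjusted p = 0.124) without SB library 2 (2.08, adjusted p = 0.0122). UNC5C had 3 and 6 in SB, 12 in both libraries at 3 days, and 17 and 20 at 7 days. It rose at 7 days (1.88 ± 0.44, adjusted p = 0.00329), whereas the call at 3 days (1.30 ± 0.44, adjusted p = 0.0435) was lost when SB library 1 (0.89, adjusted p = 0.139) or any 3-day or 7-day library was left out (adjusted p = 0.0655 to 0.162).

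Ligands and receptors that pair did not always move together. SEMA3F and NRP2 were both called higher in all 3 comparisons, and SEMA7A and PLXNC1 in both comparisons with SB. The SEMA3F call between 3 and 7 days was lost in 5 alternatives, and the PLXNC1 call at 3 days without SB library 2 or 3-day library 1. For SEMA3A, whose counts fell, the receptors PLXNA4 and, by 7 days, NRP1 rose, and per kb SEMA3A stood at 214 and 230 times SEMA3C in the SB libraries, 6.21 and 6.28 times at 3 days, and 3.40 and 3.86 times at 7 days. SEMA7A stood at 21.5 and 18.8 times its receptor PLXNC1 in SB, 91.6 and 112 times at 3 days, and 163 and 123 times at 7 days. PLXND1 rose while its ligand SEMA3E fell at 7 days, and EFNB2 rose while the counts of EPHB4 stood at 975 and 1105 in SB and 957 and 821 at 7 days. UNC5B rose while NTN4 passed no threshold, whereas NTN1 and FLRT3, 2 other ligands of UNC5 receptors, were higher at 7 days against SB too, NTN1 from 7 and 10 to 32 and 19. The NTN1 call was lost without 7-day library 1 (1.09), NTN1 was not called between 3 and 7 days, and its direction is partly fixed by the filter. These ratios are of transcript levels within a library and carry no test.

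Tested members without a called 2-fold change numbered 24. At 3 days, 2 of them were higher, 5 lower and 17 not called, with log2 changes from -0.96 (SEMA3G) to 0.68 (EPHA1). At 7 days against SB, 11 were higher, 5 lower and 8 not called, from -0.91 (SEMA3E) to 0.96 (EPHA1), and between 3 and 7 days 9 were higher, 3 lower and 12 not called, from -0.97 (SEMA3E) to 0.84 (PLXNB3). The 14 members under the filter were barely detected or absent at this depth. SLIT1 had 16 and 12 normalized counts in SB, 5 and 7 at 3 days, and 5 and 3 at 7 days. EPHB6 had 3 and 2 in SB, 5 and 7 at 3 days, and 10 and 13 at 7 days. SEMA5B reached at most 10 in a library and NTNG2 9. NTN5 and SLIT3 reached 3, EPHA8, NTN3 and SEMA6D 2, EPHA3, ROBO1 and SEMA3D 1, and EPHA6 and NTNG1 were listed at 0 in every library.

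A pair of further gene lists were counted beside the members. DCC, CHL1 and TREM2, all on the first list, had no values and could not be tested. Of 25 co-receptors and surface partners listed, 17 were tested, and 9 rose and 3 fell at 3 days (70.6% called), 11 rose and 3 fell at 7 days (82.4%), and 7 rose and 1 fell between them (47.1%), with median log2 changes of 0.38, 0.59 and 0.27, beside 29.0%, 54.5% and 33.2% of all tested genes called. L1CAM, a neuronal adhesion molecule that associates with NRP1, had 42 and 40 in SB, 153 and 233 at 3 days, and 601 and 514 at 7 days (3.73 ± 0.21 at 7 days, adjusted p = 4.97e-08). FLRT3, a ligand of UNC5 receptors, had 83 and 37 in SB, 489 and 500 at 3 days, and 589 and 591 at 7 days (3.39 ± 0.28, adjusted p = 1.20e-06). LRP1 (850 and 1511 in SB, 10319 and 8357 at 7 days) also rose, and between 3 and 7 days so did the netrin receptor NEO1. NEO1 had 317 and 338 in SB, 752 and 698 at 3 days, and 1389 and 1362 at 7 days. MST1R and MET, receptor kinases that couple to B-type plexins, fell by 0.998 (adjusted p = 0.000166) and 0.60 (adjusted p = 0.000124) at 7 days against SB.

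Of 62 intracellular signal carriers of these pathways, 54 were tested, with 24 higher and 4 lower at 3 days (51.9% called), 25 and 8 at 7 days (61.1%) and 9 and 7 between them (29.6%), and medians of 0.27, 0.25 and -0.01. Against 54.5% and 33.2% of all tested genes, the share at 7 days was near the background and that between 3 and 7 days below it, while the share at 3 days stood above 29.0%. ABLIM3, an actin-binding protein, had 6230 and 5586 in SB, 13376 and 13626 at 3 days, and 18389 and 17970 at 7 days (1.62 ± 0.08 at 7 days, adjusted p = 2.15e-08). RASA1, a Ras GTPase-activating protein recruited by EPHB2, rose by 1.50 ± 0.10 (adjusted p = 1.53e-07), and RRAS, a small GTPase that plexins act on, by 1.27 ± 0.18 (adjusted p = 9.78e-05). TIAM1, a Rac exchange factor that binds Eph receptors, fell by 0.98 (adjusted p = 0.000199), as did LIMK2 (by 0.66, adjusted p = 0.000544) and ARHGEF16 (by 0.74, adjusted p = 0.0135). Between 3 and 7 days, INPPL1, ABLIM3 and LIMK1 rose by 0.38 to 0.49, and ARHGEF26, MICAL2, an actin-oxidizing enzyme of the family that acts below plexins, and SRGAP1, which acts below ROBO receptors, fell by 0.93, 0.80 and 0.66.

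Transcripts of the members are rich in G and C, and this property moved with the differences between libraries. The median GC content of the longest transcript was 58.8% over the 53 members (34.7 to 69.7%), compared with 47.9% over 13021 tested genes. Across the 53 members, which share the same libraries, Spearman's rho between GC content and the difference of library 2 minus library 1 came to 0.37 for the SB pair, 0.50 for the 3-day pair and -0.54 for the 7-day pair. Over the 13021 genes it was 0.20, 0.63 and -0.62, so all genes of these libraries showed it too. With the log2 fold change the members' rho was 0.05 at 3 days against SB (-0.14 over the 13021 genes), 0.27 at 7 days against SB (-0.03) and 0.54 between 3 and 7 days (0.09). ROBO2, SEMA3A, SEMA3C and SEMA3E lay at the GC-poor end (34.7 to 38.0%) and had values below 0 between 3 and 7 days. The calls of ROBO2, SEMA3A and SEMA3E were kept after the GC correction. At 7 days against SB, the correction added calls for EPHB4 (-0.42, adjusted p = 0.000771) and PLXNA2 (-0.58, adjusted p = 0.00818), both lower, and for EFNA4 (0.38, adjusted p = 0.0189), higher. At 3 days it added EPHA1, EPHA2 and EPHB1 (higher, adjusted p = 0.0375 to 0.0442) and SEMA5A (lower, adjusted p = 0.0291), and between 3 and 7 days EFNA5, EPHA10, EPHB2, SEMA3C and SEMA5A (lower, adjusted p = 0.0222 to 0.036).

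**Figure D5:**
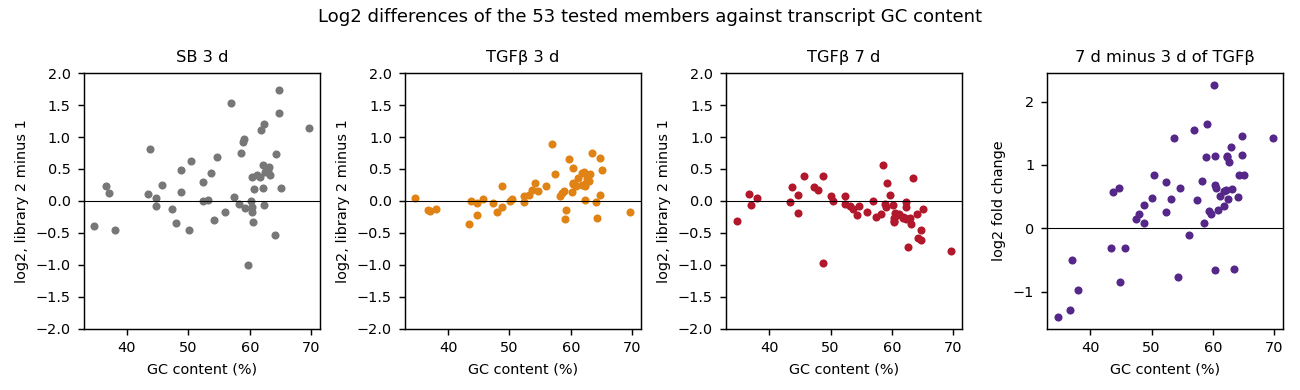
Transcript GC content (%) of the 53 tested members against the log2 difference of library 2 minus library 1 within SB at 3 days, TGFβ at 3 days and TGFβ at 7 days (first 3 panels), and against the log2 fold change of 7 days minus 3 days of TGFβ (last panel), with 1 point for each member. Points rise with GC content at 3 days (rho 0.50), descend at 7 days (rho -0.54) and rise in the last panel (rho 0.54), whose GC-poor points lie below 0.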

How the data were processed

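Libraries for RNA-seq of the H2087-LCC cells were made with a kit that does not keep strand. Per the labels and methods, the authors mapped read pairs to hg19 with STAR, counted unique reads per gene with HTSeq 0.6.1p1 (FastQC 0.11.5 and DESeq2 3.4 are also named in the submitters' processing notes) and divided by library size. The deposited values, recorded under the unit score because they are normalized counts rounded to whole numbers, were taken as log2(value + 1). Genes whose mean reached 10 (14395) were fitted over all 6 libraries with limma 3.58.1 in R 4.3.3 (group as the only term, empirical Bayes with trend), with Benjamini-Hochberg adjustment over all tested genes in each comparison and a threshold of 0.05. The study's count test needs read counts and was not used. With 2 libraries against 2, an exact permutation test of a single value cannot go below 0.333. Depth was estimated from the gaps between low values, and covers counting error only.

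Coordinates and lengths came from GENCODE v44 on GRCh37 (all 67 members matched), and promoters from RefSeq on GRCh38.p14. Members with an adjusted p under 0.05 and an absolute log2 fold change of at least 1 in some comparison were named with every library's value. The other tested members were given by count, direction and range, the 3 with the highest level per kb with their values, and others of interest after their values were seen. Of the pathway lists, the 3 largest called rises and falls with a mean of at least 100 were named. The members and lists were chosen with earlier results of these data known. The alternatives were other scalings, pseudocounts of 0.5 and 5, other filters, limma without trend, 4 libraries only, a replicate block, each library left out, and a correction for GC content and length (loess, span 0.5) chosen after seeing the data. The steps were tested on simulated data. Plots were made in Python 3.11.15 with matplotlib 3.10.9. Protein sequences were not used here.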

Additional observations from a re-analysis of the deposited data

How the results depend on the processing

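Requiring a fold change over 2 in addition left 22 members at 7 days against SB and 13 between 3 and 7 days. With no filter on low values, 19 were called between 3 and 7 days (32 with the filter), beside 3042 and 4775 of all genes. When 1 library was left out, the number called ran from 21 to 28 at 3 days against SB, 32 to 44 at 7 days against SB and 19 to 35 between 3 and 7 days, the last lowest without 7-day library 1. Over all 14395 tested genes it ran from 2609 to 3877 (4170 with all libraries), 5913 to 7687 (7851) and 2314 to 5554 (4775) in the same order. The median log2 fold change then ran from 0.5463 to 0.8559 at 7 days against SB and from 0.4126 to 0.6241 between 3 and 7 days, and after the GC correction the medians were 0.4469 and 0.3316. With the longest transcript in place of the union of exons, the shares at 7 days were 86.61% for EPHA2 (88.49% with the union), 36.14% for EPHB2 (38.33%), 41.86% for EFNA4 (47.65%), 68.65% for SEMA7A (77.19%), 63.83% for NRP1 (65.26%), 31.6% for PLXNA1 (32.08%) and 38.82% for SEMA3A (42.06%).

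Of the values of the 29 members with 2-fold calls under all alternatives, 1351 kept their direction and side of the threshold, 61 lost a call, 28 gained one and 15 changed sign, the last all of values with no call. With 1 library left out at a time, the log2 fold change at 3 days against SB ran from -0.1723 to 0.3363 for EFNB1 (lowest without 3-day library 2, -0.003762 without SB library 2), -0.5283 to 0.4413 for EFNB3 (0.1001 without 3-day library 2, and 0.02639 with all libraries and the GC correction), -0.8632 to 0.5202 for SEMA3B, -1.447 to 0.08397 for SEMA4A and -0.4992 to 0.4173 for SEMA4G (0.04001 without 3-day library 1). The highest values of the last 4 genes came without SB library 2. At 7 days against SB it ran from -0.2033 to 0.3556 for EPHB3 (-0.07002 with all libraries and the GC correction), -0.1484 to 1.054 for PLXNB1 and -0.1706 to 0.9669 for SEMA6B, lowest without SB library 1 in each. Between 3 and 7 days it ran from -0.2272 to 0.007977 for EPHB2 (highest without 3-day library 2) and -0.1077 to 0.5528 for ROBO4 (lowest without 3-day library 1). The cause was not tested.

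With a replicate block, 28, 41 and 33 members were called in the 3 comparisons. The replicate differences of the groups correlated at 0.14 (SB with 3 days), -0.10 (SB with 7 days) and -0.29 (3 with 7 days) over 14395 genes. Whether libraries of different groups share a batch was not tested. With 2 libraries per group and fewer than 10 normalized counts in some groups, changes of EFNA2, NTN1, ROBO4, SEMA4A, UNC5A and UNC5C are the least precise.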
